A study of Mus musculus with 6 samples.

Results

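The nuclear genes of the mitochondrial respiratory chain were examined in AML12 cells, an established line of mouse hepatocytes. Members were the protein-coding genes whose symbols begin as those of the subunits of complexes I to V do (Nduf with the letter a, b, c, s or v and a digit, Sdha to Sdhd, Uqcr, Cyc1, Cycs, Cox4 to Cox8, and Atp5). This rule took 87 of the 54532 genes in the table, of which 22046 were protein-coding. They were 35 genes of complex I, 4 of complex II, 9 of complex III, 20 of complex IV, 18 of complex V and the cytochrome c gene Cycs. Ndufa4 and Ndufa4l2 were placed with complex IV, since the Ndufa4 protein is a subunit of that complex. Atp5s has the name but is not a subunit of the enzyme, and a second row named Atp5o and the testis paralogue Cox8c had no count in any library. The cells, all labelled wild type, formed 2 groups of 3 libraries taken at 24 h. One group carried the label PP at 250 µg/ml, and the other received the modelling reagent PA/OA at doses of 400 and 800 nM as the submitters wrote them. The line comes from mice transgenic for human TGF-alpha. The abbreviations are not spelled out, the title names Camellia oleifera meal peptides, and the design text does not settle whether PA/OA was also given to PP cells. An untreated control was not analysed here.

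The respiratory chain passes electrons from NADH through complex I, or from succinate through complex II, to coenzyme Q, then through complex III and cytochrome c to complex IV, where oxygen is reduced. Complexes I, III and IV pump protons across the inner mitochondrial membrane, and complex V, the ATP synthase, uses the return flow to make ATP. All complexes but complex II join nuclear subunits with subunits encoded in mitochondrial DNA, and hepatocytes are rich in mitochondria.

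PP libraries held 27418502, 32560589 and 31832239 counts, and PA/OA libraries 26825673, 26040579 and 24113169. The members took 0.770%, 0.808% and 0.775% of the counts in PP and 0.735%, 0.746% and 0.785% in PA/OA, ranges that overlapped. Counts were scaled by TMM, a method that sets library sizes from genes of middling change, and values are TMM-scaled CPM, read counts brought to a common library total. Of the 9 hepatocyte markers checked, 8 were tested, with 2 higher and 3 lower in PP and a sum of 3724 to 4074 CPM in PP and 3010 to 3222 CPM in PA/OA. Most of that sum was Krt8 and Krt18, keratins that cholangiocytes also express. They were at 1994 and 1730 CPM in PP and 1775 and 975 CPM in PA/OA. Krt8, higher by 0.17 on the log2 scale (PP minus PA/OA), turned to -0.27 when library size alone was used. It was -0.07 with upper-quartile scaling and -0.63 with each library's trend against abundance removed. Krt18 was at 0.39, 0.59 and 0.08 under these settings, and did not pass the test in the last. Apob was at 75.8 ± 9.68 CPM in PP and 245.5 ± 5.93 CPM in PA/OA, and Hnf4a at 26.9 ± 1.55 CPM in PP and 71.7 ± 5.06 CPM in PA/OA, both lower in PP. Trf, at 3.31 ± 0.33 CPM in PP and 2.33 ± 0.35 CPM in PA/OA, had a higher mean in PP and groups that did not overlap. Apoa1 also had a higher mean in PP, at 2.735 ± 0.48 CPM against 2.04 ± 0.54 CPM in PA/OA. Ttr had a lower one, at 0.77 ± 0.31 CPM against 1.45 ± 0.66 CPM. Trf, Apoa1 and Ttr did not pass the test. Alb, the albumin gene that defines the type, was low, at 9.90 ± 1.38 CPM in PP and 12.2 ± 1.36 CPM in PA/OA (SD, n = 3 each), while the fibrinogen gene Fgb had no count in PP and 1 in PA/OA. Cholangiocyte markers summed to 4053 to 4496 CPM in PP and 2429 to 2553 CPM in PA/OA. Under TMM scaling 4 of 5 were higher in PP, and Epcam had no count. Of all genes tested 35.1% were higher and 39.9% lower, and of the abundant genes described below 54.9% and 28.9%. With library size alone Krt7 turned to -0.11 and Krt19 stayed at 0.37. With the trend removed Krt7 was at -0.24 and Krt19 at -0.04. Sox9 and Spp1 stayed higher, at 0.27 and 0.93 with library size alone and 0.59 and 0.96 with the trend removed. Of the 8 Kupffer cell and leukocyte markers Cd68 was higher, and Adgre1, Clec4f and Vsig4 had no count. The 8 summed to 26.6 to 29.5 CPM in PP and 3.13 to 4.001 CPM in PA/OA. Nearly all of this was Cd68, at 27.3 ± 1.63 CPM in PP and 2.78 ± 0.28 CPM in PA/OA. Csf1r, at 0.47 ± 0.33 CPM in PP and 0.52 ± 0.20 CPM in PA/OA, did not pass. Ptprc, Cd3e and Cd79a had too few counts to test. Endothelial, stellate cell and striated muscle markers summed to at most 2.22 CPM in PP and 4.64 CPM in PA/OA, with 2 stellate markers lower in PP. The part of these markers in the results below was not tested, and in bulk RNA fewer cells of a type and less RNA per cell cannot be told apart. No label states whether replicate libraries stem from separate cultures; the p-values rest on the spread among them, which may be technical.

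Promoters of 5 genes are shown because their genes carry the results: Uqcrh and Sdhd had the largest increases of complexes III and II, Atp5g2 and Atp5g1 are paralogues that moved in opposite directions, and Ndufa5 was among the few lower complex I genes. Each run is the 250 bases before the gene start given by RefSeq on GRCm38.p6, read 5′ to 3′ on the gene's strand. That start can differ from the start in the count table. By the count table's coordinates the Ndufa5 and Atp5g2 runs lie wholly inside the gene model. The Atp5g1 run lies partly inside it, and the Uqcrh run by its last base. Capitals mark matches, on either strand, to GCGCA, any base and GCGC in a row, the core bound by the factor NRF1, or to CCGGAAGT, a core bound by GABP and other ETS factors.
Uqcrh, chr4:116075071-116075320, minus strand: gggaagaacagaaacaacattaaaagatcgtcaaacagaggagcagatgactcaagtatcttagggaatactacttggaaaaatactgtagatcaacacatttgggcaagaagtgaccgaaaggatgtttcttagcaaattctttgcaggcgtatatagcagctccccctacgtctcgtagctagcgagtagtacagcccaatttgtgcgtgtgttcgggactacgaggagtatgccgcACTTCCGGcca
Sdhd, chr9:50603850-50604099, minus strand: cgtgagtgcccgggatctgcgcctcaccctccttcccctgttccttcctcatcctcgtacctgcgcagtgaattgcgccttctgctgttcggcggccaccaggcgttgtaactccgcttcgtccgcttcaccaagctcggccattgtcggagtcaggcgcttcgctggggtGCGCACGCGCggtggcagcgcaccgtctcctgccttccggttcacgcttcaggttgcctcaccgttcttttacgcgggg
Atp5g2, chr15:102671048-102671297, minus strand: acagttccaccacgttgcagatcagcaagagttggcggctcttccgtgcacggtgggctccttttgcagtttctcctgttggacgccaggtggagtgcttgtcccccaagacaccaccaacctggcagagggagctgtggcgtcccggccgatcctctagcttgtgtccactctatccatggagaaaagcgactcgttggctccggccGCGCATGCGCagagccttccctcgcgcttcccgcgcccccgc
Atp5g1, chr11:96075632-96075881, minus strand: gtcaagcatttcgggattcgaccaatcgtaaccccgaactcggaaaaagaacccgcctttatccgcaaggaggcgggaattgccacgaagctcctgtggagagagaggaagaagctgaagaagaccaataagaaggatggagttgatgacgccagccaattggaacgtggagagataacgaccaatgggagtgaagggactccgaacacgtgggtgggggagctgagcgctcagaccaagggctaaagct
Ndufa5, chr6:24527527-24527776, minus strand: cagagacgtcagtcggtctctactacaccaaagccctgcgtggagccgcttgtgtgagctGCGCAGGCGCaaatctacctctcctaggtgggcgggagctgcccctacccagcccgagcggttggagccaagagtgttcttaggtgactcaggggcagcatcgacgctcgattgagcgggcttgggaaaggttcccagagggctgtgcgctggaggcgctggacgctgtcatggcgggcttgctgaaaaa
Of the 67 members found in the promoter table, 12 (17.9%) held the NRF1 core in this window, against 3.74% of all 32851 promoters. The GABP/ETS core stood in 3 members (4.48%), Uqcrh, Uqcr11 and Atp5h, against 2.88% of all promoters. AANATGGCG, bound by YY1, stood in 1 member, Ndufb11 (1.49%, against 1.12% of all), and TNAAGGTCA, bound by ERR receptors, in 2 (2.99%, against 1.14%). GGGCGG, bound by Sp1 and not marked, stood in 34.3% of members and 32.7% of all promoters. The Atp5g1 window held neither marked core. Matches of different motifs may overlap. The NRF1 core was in 7 of 43 members higher in PP and in 5 of the 24 others, Ndufa5 among them. A match describes the letters in this window and no more.

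Most nuclear respiratory chain genes had more mRNA in PP than in PA/OA under TMM scaling. Of 81 members tested, 56 (69.1%) were higher in PP, where 35.1% of all 15718 genes tested were, and 8 (9.88%) were lower, against 39.9% of all genes (edgeR, quasi-likelihood test, Benjamini-Hochberg adjusted). Changed genes were the rule in these libraries, since 75% of all genes tested passed in one direction or the other. The members' median log2 fold change (PP minus PA/OA) was 0.42, or 0.50 relative to the median of all genes of -0.09. Libraries of the groups did not overlap for 56 members with PP above and for 6 with PP below, where 77.4% of all genes had groups that did not overlap. Increases were modest: 6 members changed at least 2-fold upward (12.1% of all genes did) and 2 downward (24.5% of all genes).

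The members are abundant, and most abundant genes of these libraries were called higher. Of the 73 members whose average log2 CPM reached 4, 75.3% were higher and 6.85% lower, against 54.9% and 28.9% of the 7705 genes at that level. Of those genes 83.8% passed in either direction and 84.7% had groups that did not overlap. The medians were 0.43 for these members and 0.26 for those genes.

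Scaling changed this split. When library size alone was used, which moved the median of all genes by -0.43, 24 members were higher and 28 lower, where 20.6% and 56.7% of all genes were. With upper-quartile scaling, which moved that median by -0.24, 39 were higher and 17 lower, where 27% and 48.9% of all genes were. With each library's trend against abundance removed, 45 were higher and 17 lower, where 35.7% and 35.4% of all genes were. The members' median was -0.02 with library size only and 0.18 with upper-quartile scaling. Relative to all genes it is 0.50 in both, as under TMM, which says nothing more, since a scaling moves all genes nearly alike. With the trend removed the members' median was 0.23, while the median of all genes moved by 0.10. A core of 24 members (29.6% of those tested) was higher under all 17 settings tried, near the 31.8% of the abundant genes and above the 19.9% of all genes that were. Only Atp5g1, Cox4i2 and Cox6a2 (3.70%) were lower under every setting that gave them a value, Cox4i2 having none with a filter of 1 CPM, where 27.8% of all genes and 25.1% of the abundant genes were.

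**Figure D1:**
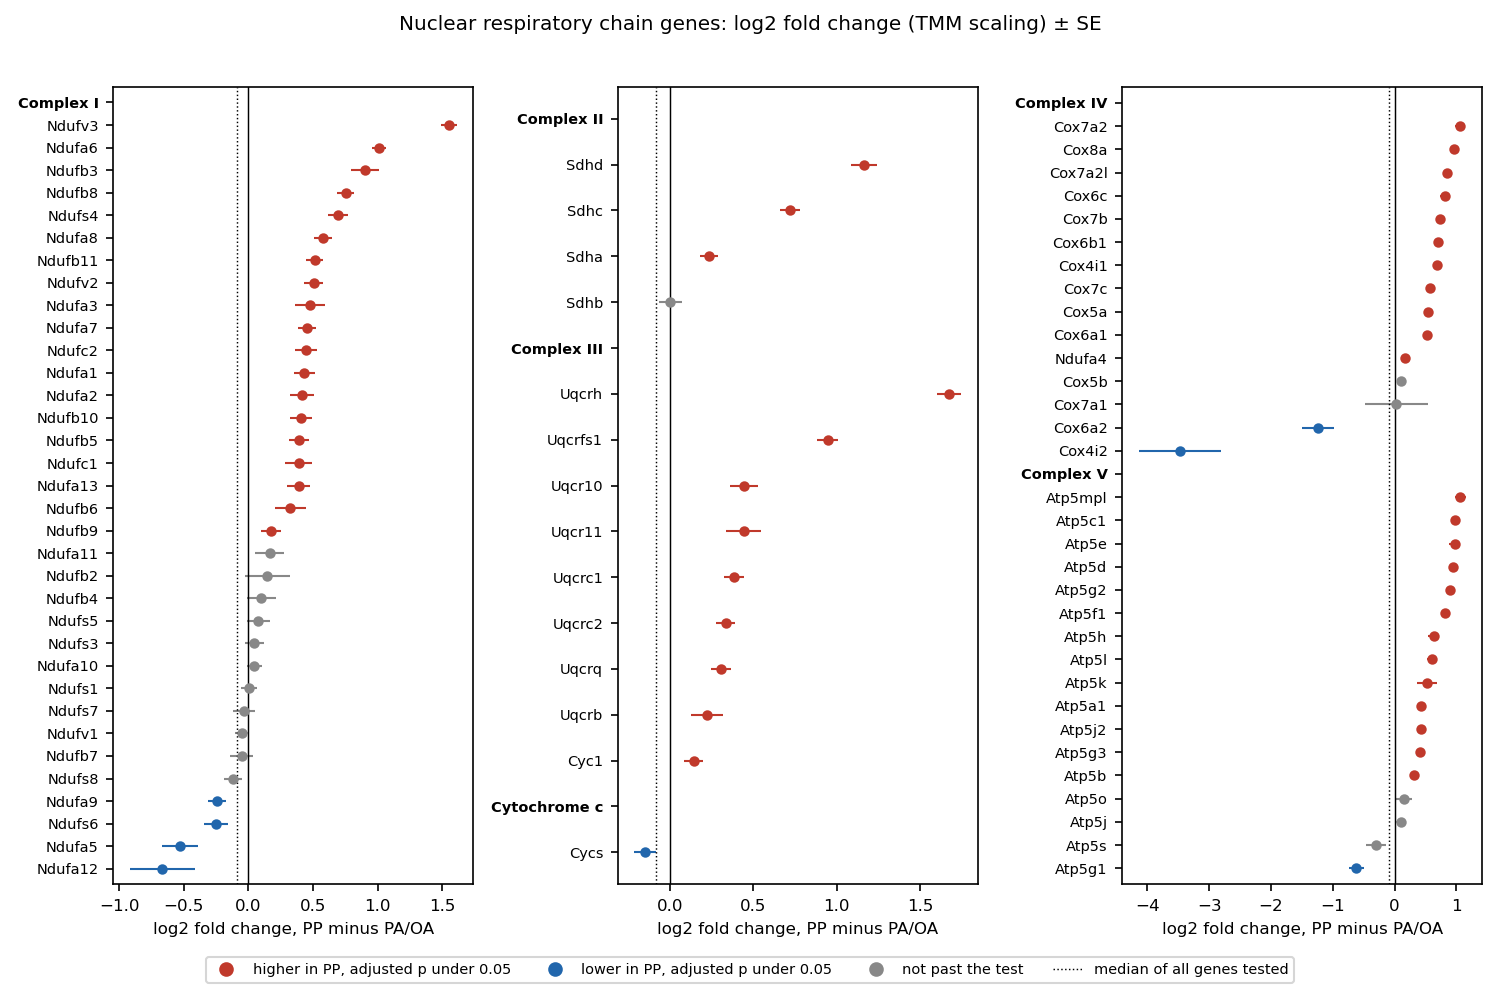
Log2 fold change, PP minus PA/OA, with TMM scaling, of the members tested, sorted within their complex, with 1 complex I gene not drawn; bars are ± 1 SE and colours give the call. Most points lie to the right: of all 81 members tested, 56 were higher and 8 lower, against 24 and 28 when library size alone was used.

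**Figure D2:**
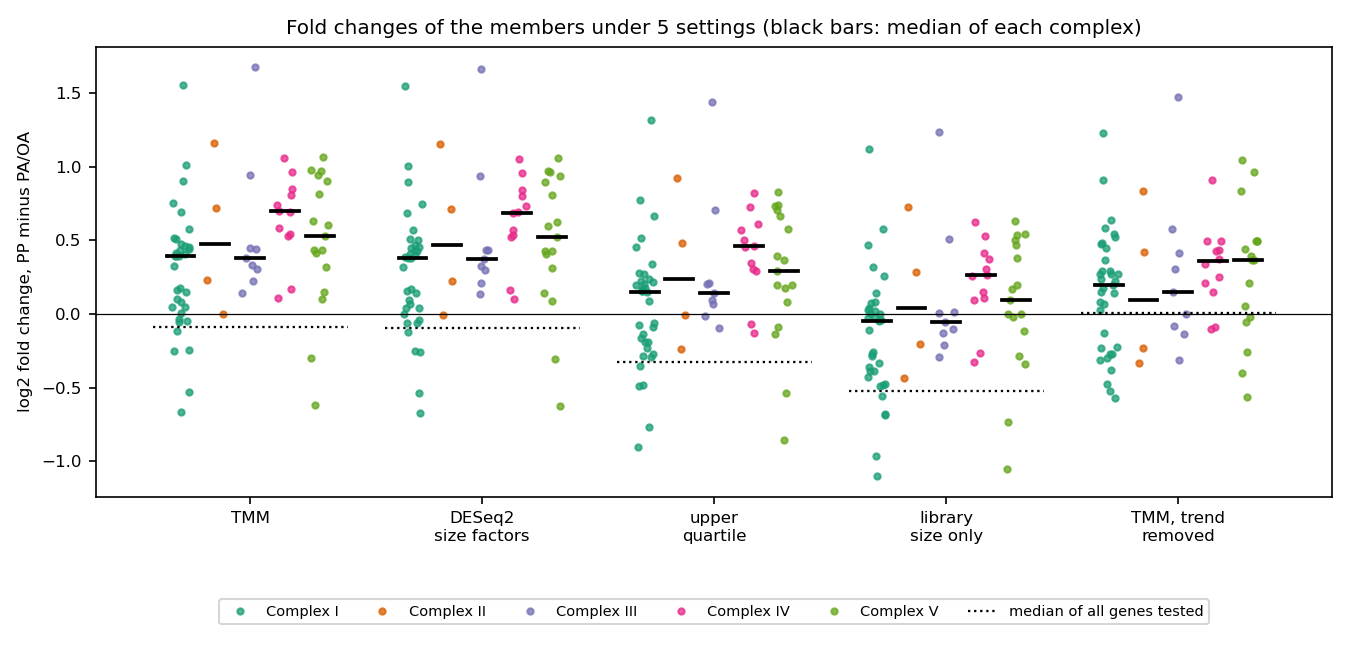
Log2 fold change, PP minus PA/OA, of the members under 5 settings, without the complex IV paralogues of restricted expression and without Cycs; 1 point is 1 gene, black bars are medians by complex and dotted lines the median of all genes tested. The points and the dotted line move down together with upper-quartile and library size scaling, where the medians of complexes I and III fall just below 0 with library size only.

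Members were measured tightly. The median coefficient of variation over the 3 libraries was 5.41% in PP and 6.16% in PA/OA, and it exceeded 20% only for Ndufa12, Cox7a1, Cox4i2 and Atp5s in PP and for Ndufa12 and Cox7a1 in PA/OA. Another counted gene lay over 34 members, and for 17 of them its counts came to over 5% of the member's own, which leaves these counts uncertain if the counting ignored strand. Reads shared with near-identical pseudogenes can also move counts of these genes.

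Complex I oxidises NADH, with a set of core subunits that carry the flavin and iron-sulphur clusters and a larger set of accessory subunits around them. Of its 35 genes, 20 were higher in PP, 4 lower and 11 not past the test, with a median of 0.39. Of all genes 35.1% were higher and 39.9% lower, and of the abundant genes 54.9% and 28.9%. With library size only 5 of the 35 were higher, 15 lower and the median was -0.05, where 20.6% and 56.7% of all genes were higher and lower. Of the 28 accessory genes, which are most of the complex, 18 were higher and 4 lower (median 0.39). Of the 7 core genes 2 were higher, none lower and 5 stayed short of the threshold under TMM scaling (median 0.01). Those 5 were lower in PP with library size only, with upper-quartile scaling and with the trend removed.

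Ndufv3, an accessory subunit of the NADH-oxidising flavoprotein part, had 149, 154 and 144 CPM in PP, against 50.1, 53.1 and 48.9 CPM in PA/OA. Every PP library stood far above every PA/OA library of this gene (chr17:31520115-31531326, mm10). Its log2 fold change of 1.55 ± 0.06 (SE), a 2.94-fold difference with adjusted p = 9.95e-16, was the largest of complex I. Ndufa6, an accessory subunit that binds the mitochondrial acyl carrier protein (chr15:82350140-82354322), had 161, 166 and 169 CPM in PP, against 81.8, 82.2 and 82.5 CPM in PA/OA. The groups were 2.01-fold apart with little spread inside either (log2 1.01 ± 0.05, adjusted p = 2.28e-13). The membrane arm subunit genes Ndufb3 and Ndufb8 were higher by 0.90 ± 0.11 and 0.75 ± 0.07 on the log2 scale. All 4 of these genes were higher under every setting tried, as were 19.9% of all genes and 31.8% of the abundant genes.

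The 4 lower genes were Ndufa12, Ndufa5, Ndufs6 and Ndufa9, all accessory subunits of the arm that reaches into the matrix. Ndufa5 (chr6:24518666-24528013) had 9.68, 9.30 and 7.39 CPM in PP, against 10.9, 13.9 and 13.3 CPM in PA/OA. All PP libraries lay below all PA/OA libraries, with a log2 fold change of -0.53 ± 0.14 (adjusted p = 0.00192), and with the abundance trend removed it was -0.32 and did not pass (adjusted p = 0.0522). Ndufa9 had 58.1, 67.1 and 63.0 CPM in PP, against 70.6, 72.9 and 79.4 CPM in PA/OA. Its groups did not overlap either (log2 -0.24 ± 0.07, adjusted p = 0.00349), but without PP replicate 1 the change was -0.17 and did not pass (adjusted p = 0.0605). Ndufs6, a zinc-binding subunit, changed by -0.25 ± 0.09 (adjusted p = 0.0176), did not pass without PA/OA replicate 3, PP replicate 1 or PP replicate 2, and lies under Mrpl36, a ribosomal protein gene with 96.8% as many counts. Ndufa12 was erratic, with 11.4, 21.6 and 11.7 CPM in PP and 11.9, 25.4 and 34.0 CPM in PA/OA. Its groups overlapped, and the change of -0.67 ± 0.25 (adjusted p = 0.0212) did not pass with DESeq2 (adjusted p = 0.221), with limma-voom (adjusted p = 0.0657), with the trend removed (adjusted p = 0.0505) or without any of 4 of the 6 libraries. The whole count of 4 therefore was 1 without PP replicate 1 and 2 without PA/OA replicate 3.

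Ndufv2, a core iron-sulphur subunit, had 75.4, 87.5 and 84.4 CPM in PP, against 56.3, 63.2 and 54.6 CPM in PA/OA. All PP libraries lay above all PA/OA libraries (log2 0.51 ± 0.07, adjusted p = 1.81e-06), while with library size only the gene did not pass (0.07). The 5 core genes that did not pass under TMM scaling had log2 fold changes of -0.12 to 0.05, and PP and PA/OA libraries overlapped for each. All 5 were lower in PP under other settings, so their call depends on the scaling. Their changes were -0.55 to -0.39 with library size only, -0.36 to -0.19 with upper-quartile scaling and -0.48 to -0.22 with the trend removed. Per kilobase of gene model, Ndufa2 was the most abundant complex I mRNA, at 132 ± 10.8 CPM per kb in PP and 98.7 ± 16.8 CPM per kb in PA/OA. The log2 difference of Ndufa2 was 0.42 ± 0.09 under TMM scaling and -0.02 with library size only.

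**Figure D3:**
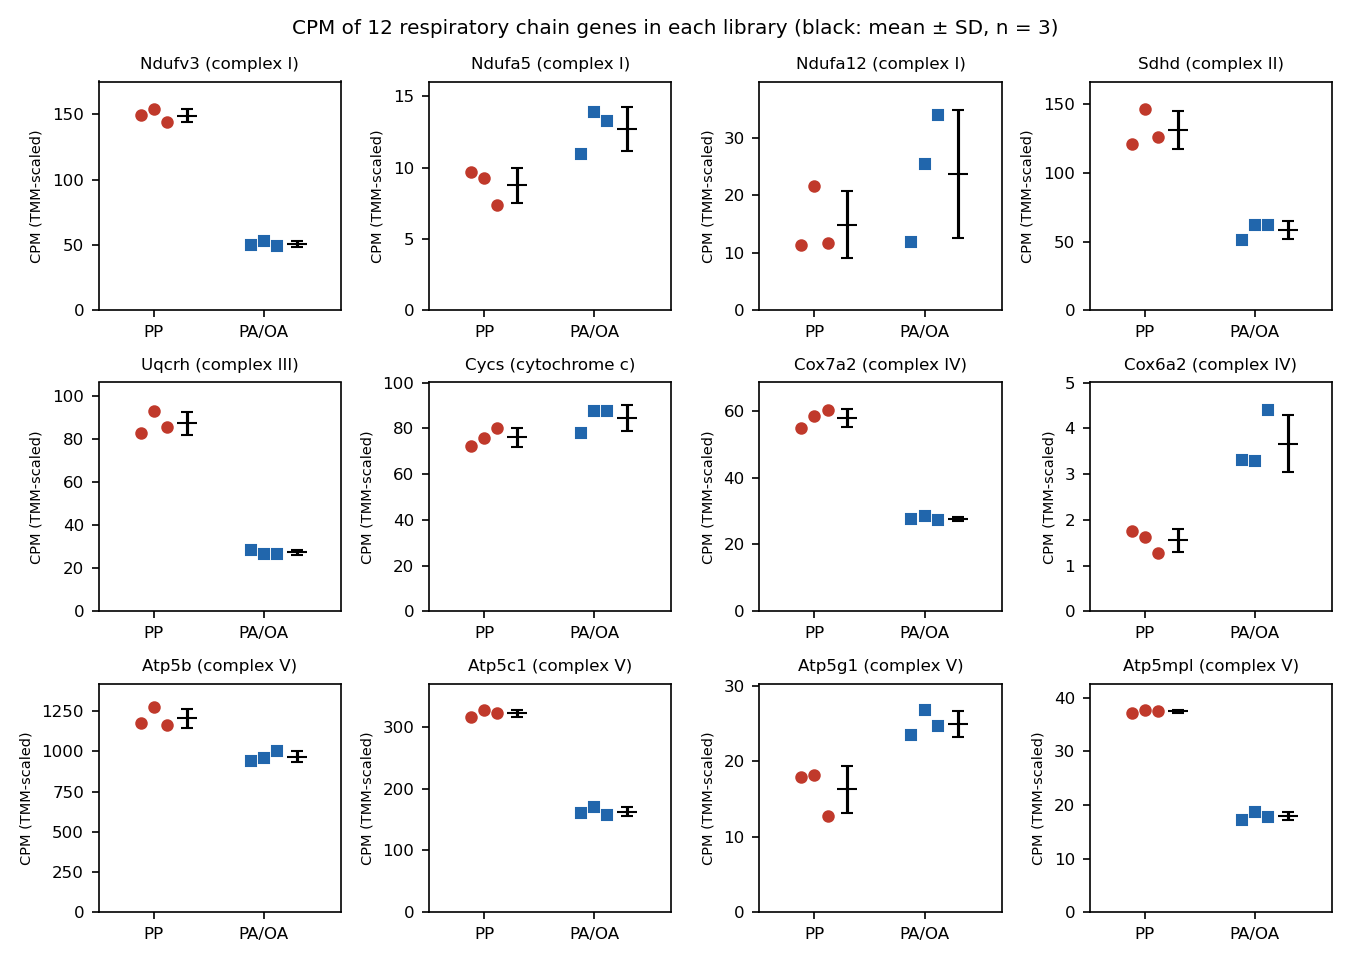
TMM-scaled CPM of 12 members in each library, PP left of PA/OA; coloured points are libraries and black marks are mean ± SD (n = 3). PP and PA/OA libraries do not overlap for 10 of the genes and overlap for Ndufa12 and Cycs. Of all genes tested 77.4%, and of the abundant genes 84.7%, had groups that did not overlap. With library size only Atp5b is lower in PP.

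Complex II oxidises succinate and is the one complex whose subunits are all nuclear. Its membrane anchor genes were higher in PP than in PA/OA, and its catalytic subunit genes differed little under TMM scaling. Sdhd and Sdhc were higher under all 17 settings, as were 19.9% of all genes and 31.8% of the abundant genes. Sdha and Sdhb changed sign with the scaling. Sdhd, an anchor that helps hold the haem and coenzyme Q (chr9:50596357-50603812), had 121, 147 and 127 CPM in PP, against 51.3, 62.4 and 62.5 CPM in PA/OA. PP was 2.24-fold higher (log2 1.164 ± 0.08, adjusted p = 1.44e-11). Sdhc, the other anchor, had 92.8, 102 and 96.0 CPM in PP, against 57.7, 60.7 and 58.1 CPM in PA/OA (log2 0.72 ± 0.06, adjusted p = 7.81e-10). Its groups stood well apart too. Sdha, the flavoprotein that oxidises succinate, had 224.7, 219.9 and 214 CPM in PP, against 180.1, 180.1 and 201 CPM in PA/OA. This difference of 0.23 ± 0.06 (adjusted p = 0.000776) was -0.20 with library size only, -0.01 with upper-quartile scaling and -0.23 with the trend removed. Sdhb, the iron-sulphur subunit, had 84.0, 96.3 and 95.3 CPM in PP and 83.7, 94.6 and 97.4 CPM in PA/OA. These values overlapped throughout, with a log2 fold change of 0.00 ± 0.07 (adjusted p = 0.994), or -0.43 with library size only, -0.24 with upper-quartile scaling and -0.33 with the trend removed. The difference between anchor and catalytic genes was not tested as such.

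Complex III passes electrons from coenzyme Q to cytochrome c. All 9 of its genes were higher in PP under TMM scaling, by 0.14 to 1.67 with a median of 0.38, where 35.1% of all genes and 54.9% of the abundant ones were. With library size only 2 of the 9 were higher, 2 lower and the median was -0.05, where 20.6% and 56.7% of all genes were higher and lower. Uqcrh, the acidic hinge protein at the cytochrome c docking site, had 82.9, 93.1 and 85.6 CPM in PP, against 28.7, 26.5 and 26.8 CPM in PA/OA. Its 3.19-fold difference (log2 1.67 ± 0.07, adjusted p = 5.57e-15) was the largest upward change of all members (chr4:116066965-116075071). Uqcrfs1, the Rieske iron-sulphur protein (chr13:30540308-30545362), had 145, 166 and 151 CPM in PP, against 80.0, 84.5 and 75.3 CPM in PA/OA. It was 1.93-fold higher (log2 0.95 ± 0.06, adjusted p = 9.94e-12). Both genes were higher under every setting, as were 19.9% of all genes and 31.8% of the abundant genes.

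The other complex III genes moved less. The small subunits Uqcr10 and Uqcr11 were higher by 0.45 ± 0.08 and 0.44 ± 0.10, which was 0.01 for each with library size only. Uqcrq, a small subunit, was at 195 ± 7.92 CPM in PP and 157 ± 14.0 CPM in PA/OA, higher by 0.31 ± 0.06, or -0.13 with library size only and -0.14 with the trend removed. Cyc1, cytochrome c1, had 197, 199.9 and 198 CPM in PP, against 175, 168 and 196 CPM in PA/OA. One PA/OA library came close to the PP level, and the small difference (log2 0.14 ± 0.06, adjusted p = 0.0327) was -0.29 with library size only, -0.10 with upper-quartile scaling and -0.31 with the trend removed, and did not pass without PA/OA replicate 1 or 2. Per kilobase, Uqcrfs1 was the most abundant complex III mRNA in PP, at 113 CPM per kb, and Uqcrq in PA/OA, at 86.0 CPM per kb.

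Cycs, the somatic cytochrome c that carries electrons from complex III to complex IV and takes part in apoptosis, went the other way. It had 72.2, 75.7 and 80.2 CPM in PP, against 77.8, 87.5 and 87.8 CPM in PA/OA. The groups overlapped, and the log2 fold change of -0.15 ± 0.07 barely passed (adjusted p = 0.0465). Without PA/OA replicate 2 or 3 or any one PP library it did not pass, while with library size only it was -0.58. Cyct, the testis cytochrome c, had 2, 3 and 4 counts in PP and none in PA/OA, at this depth too few to test.

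Complex IV reduces oxygen with a catalytic core encoded in mitochondrial DNA and a coat of nuclear subunits, several of which exist as a widely expressed gene and a paralogue of muscle, lung or testis. Of the 12 widely expressed genes 11 were higher in PP than in PA/OA, with a median of 0.70, and Cox5b (0.11 ± 0.07) did not pass. Of all genes 35.1% were higher, and of the abundant genes 54.9%. Over all 15 genes tested 11 were higher and 2 lower, which became 8 and 4 under library size scaling, where 20.6% and 56.7% of all genes were. This complex had the most genes, 8 (53.3% of its 15 tested), that were higher under all 17 settings. Of all genes 19.9% were, and of the abundant genes 31.8%. Those 8 were Cox4i1, Cox6b1, Cox6c, Cox7a2, Cox7a2l, Cox7b, Cox7c and Cox8a.

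Cox7a2, the widely expressed form of subunit VIIa (chr9:79755361-79759878), had 54.8, 58.3 and 60.2 CPM in PP, against 27.6, 28.4 and 27.2 CPM in PA/OA. PP was 2.08-fold higher (log2 1.06 ± 0.07, adjusted p = 2.13e-11). Cox8a, a small subunit of the membrane domain (chr19:7215158-7217616), had 272, 289 and 280.5 CPM in PP, against 142, 137 and 153 CPM in PA/OA. It was 1.95-fold higher (log2 0.96 ± 0.06, adjusted p = 9.50e-13), and per kilobase it was the most abundant of all members, at 514.5 CPM per kb in PP and 264 CPM per kb in PA/OA. Cox7a2l, which joins complexes III and IV into supercomplexes, was higher by 0.85 ± 0.06, at 207 ± 11.2 CPM in PP and 115 ± 3.22 CPM in PA/OA. Cox6c was higher by 0.81 ± 0.07, although Vps13b, which lies over it, had 330% of its counts. Ndufa4, at 66.5 ± 4.23 CPM in PP and 59.2 ± 3.44 CPM in PA/OA, was higher by 0.17 ± 0.07 (adjusted p = 0.0332), with groups that overlapped and a sign that turned with library size only (-0.27), upper-quartile scaling (-0.07) and the trend removed (-0.09).

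The paralogues of restricted expression were scarce, and those that changed were lower in PP. Cox4i2, the form of subunit IV known from lung and from cells short of oxygen, had 3, 0 and 3 counts in PP, against 26, 29 and 25 counts in PA/OA. Counts so low give a wide error on the change (log2 -3.47 ± 0.67, adjusted p = 7.89e-05). Its widespread partner Cox4i1 had 289, 300.3 and 281 CPM in PP, against 180.1, 172 and 186 CPM in PA/OA. Thus Cox4i1 was higher by 0.69 ± 0.05 (adjusted p = 1.20e-10) where Cox4i2 was lower, and Emc8, which lies over it, had 12.3% of its counts. Cox6a2, the heart and skeletal muscle form of subunit VIa, had 1.77, 1.63 and 1.27 CPM in PP, against 3.32, 3.30 and 4.39 CPM in PA/OA (log2 -1.24 ± 0.26, adjusted p = 0.000179). Its partner Cox6a1 had 146, 145 and 152 CPM in PP, against 95.8, 105 and 106 CPM in PA/OA (log2 0.53 ± 0.06, adjusted p = 2.99e-08), and did not pass with library size only (0.10). Cox7a1, the heart and muscle form of subunit VIIa, was too scattered to compare, at 0.91 ± 0.71 CPM in PP and 0.90 ± 0.38 CPM in PA/OA.

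Shares within a pair of paralogues do not depend on the scaling between libraries. Per kilobase, Cox4i2 made up 0.0541% ± 0.0471 of Cox4i1 plus Cox4i2 in PP and 0.975% ± 0.104 in PA/OA (SD, n = 3 each); the PP library with no count allows up to 0.0711%, taking 3 counts as the limit, and more if both mates of a read pair were counted, which was not tested. Cox6a2 made up 1.24%, 1.14% and 0.856% of its pair in PP and 3.45%, 3.14% and 4.09% in PA/OA. No PP library reached the lowest PA/OA library in either pair. Cox7a2 made up 25.2% ± 1.32 of the subunit VIIa family in PP and 22.4% ± 0.94 in PA/OA. An exact two-sided permutation test gave p = 0.1 for each of these shares, the smallest that 3 against 3 libraries allow, and 0.111 after adjustment over 10 such tests. Of the other paralogues, Cox6b2, Cox7b2 and Cox8b had too few counts to test, and Ndufa4l2 had 2, 0 and 0 counts in PP, against 19, 8 and 17 counts in PA/OA, under the abundant gene Shmt2.

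Complex V makes ATP with a catalytic head, a stalk that turns inside it, a peripheral stalk that holds the head still, and a membrane ring of c subunits through which protons pass. Of 17 genes tested, 13 were higher in PP, Atp5g1 lower and 3 were not past the test (median 0.53). Of all genes 35.1% were higher and 39.9% lower, and of the abundant genes 54.9% and 28.9%. With library size only 7 of the 17 were higher, 4 lower and the median was 0.09, where 20.6% and 56.7% of all genes were higher and lower. Atp5mpl had the largest change, followed by the genes of the central stalk. Atp5c1, the gamma subunit of the central stalk (chr2:10056016-10080510), had 315, 327 and 322 CPM in PP, against 161, 171 and 157 CPM in PA/OA. It was 1.97-fold higher (log2 0.98 ± 0.05, adjusted p = 2.85e-13). Atp5e and Atp5d, the epsilon and delta subunits of the same stalk, were higher by 0.97 ± 0.10 and 0.94 ± 0.06. Atp5mpl, a small proteolipid of the membrane part (chr12:111961375-111966977), had 37.2, 37.7 and 37.4 CPM in PP, against 17.2, 18.7 and 17.8 CPM in PA/OA. Its libraries were almost equal within a group and 2.09-fold apart between groups (log2 1.07 ± 0.08, adjusted p = 1.99e-10). These 4 genes were higher under every setting, as were 19.9% of all genes and 31.8% of the abundant genes.

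The catalytic head subunits Atp5a1 and Atp5b were the most abundant members by CPM and moved less. Atp5b, the catalytic beta subunit, had 1177, 1275 and 1166 CPM in PP, against 937, 957 and 1005 CPM in PA/OA. The groups did not overlap under TMM scaling (log2 0.32 ± 0.05, adjusted p = 1.43e-05), but the change was -0.12 with library size only and -0.40 with the trend removed. Atp5a1, the alpha subunit, was at 1038 ± 43.0 CPM in PP and 768 ± 28.8 CPM in PA/OA, higher by 0.43 ± 0.05, or -0.00 with library size only and -0.26 with the trend removed. Under TMM scaling 4 of 4 genes of the membrane part were higher, of which only Atp5mpl passed with library size only. Of the peripheral stalk 2 of 4 were higher under TMM scaling. For all genes that share was 35.1%, and for the abundant genes 54.9%.

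The c ring is made from 3 genes, Atp5g1, Atp5g2 and Atp5g3, whose proteins differ in the import sequence that is cut off and give the same mature subunit. Their last 90 coding bases before the stop codon, from GENCODE M21 transcripts, are shown because counts of paralogues are only as good as the differences that separate their reads. Capitals mark the 24 positions at which the 3 genes do not share 1 base.
Atp5g1: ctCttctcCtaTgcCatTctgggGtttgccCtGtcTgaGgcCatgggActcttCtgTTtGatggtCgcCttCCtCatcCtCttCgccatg
Atp5g2: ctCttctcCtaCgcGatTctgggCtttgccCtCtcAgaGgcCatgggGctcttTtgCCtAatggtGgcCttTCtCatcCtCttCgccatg
Atp5g3: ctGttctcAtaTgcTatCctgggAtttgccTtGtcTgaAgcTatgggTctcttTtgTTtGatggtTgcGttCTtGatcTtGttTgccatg
Over the last 225 coding bases, Atp5g1 and Atp5g2 shared 84.9% of bases, Atp5g1 and Atp5g3 80%, and Atp5g2 and Atp5g3 78.7%. Atp5g1 (chr11:96068852-96075670) had 17.9, 18.2 and 12.8 CPM in PP, against 23.5, 26.9 and 24.7 CPM in PA/OA. All PP libraries lay below all PA/OA libraries (log2 -0.62 ± 0.12, adjusted p = 7.64e-05), and it was lower under every setting. Atp5g2 (chr15:102662864-102672352) had 266, 289.6 and 254 CPM in PP, against 147, 143.4 and 143.3 CPM in PA/OA. It was 1.87-fold higher (log2 0.90 ± 0.06, adjusted p = 3.46e-12) under TMM scaling and higher under every other setting. Atp5g3 (chr2:73908447-73911326) had 119.8, 131 and 119.5 CPM in PP, against 91.2, 91.5 and 94.6 CPM in PA/OA, higher by 0.42 ± 0.06, or -0.02 with library size only.

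Within the c ring family the mix of transcripts shifted toward Atp5g2. Per kilobase, Atp5g2 made up 73.0%, 73.1% and 72.6% of the family in PP and 65.3%, 64.3% and 63.9% in PA/OA. Atp5g3 made up 25.6% ± 0.51 in PP and 31.7% ± 0.63 in PA/OA, and Atp5g1 1.50% ± 0.23 in PP and 3.81% ± 0.28 in PA/OA. None of these ranges overlapped between the groups, and the exact two-sided permutation test again gave its smallest value, p = 0.1. The gene model of Atp5g1 is long, which lowers its share per kilobase; by plain counts its share was 3.97% ± 0.59 in PP and 9.55% ± 0.65 in PA/OA.

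**Figure D4:**
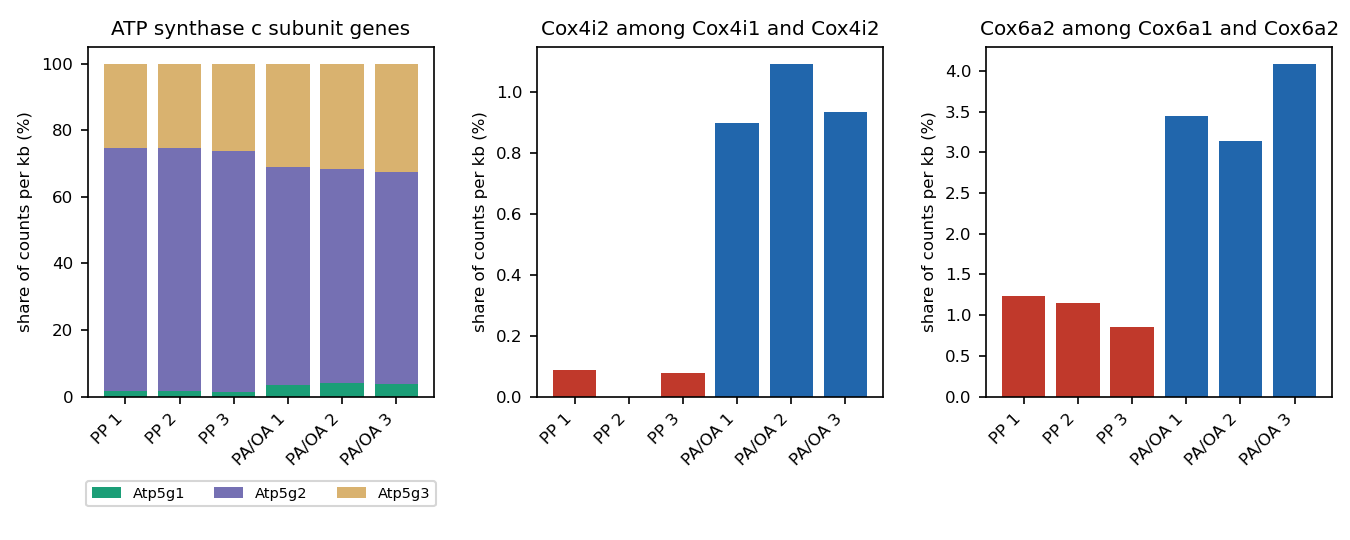
Share of counts per kb in each library, PP left of PA/OA: the 3 c subunit genes stacked to 100%, Cox4i2 within its pair and Cox6a2 within its pair. Atp5g2 holds 72.6% to 73.1% in PP and 63.9% to 65.3% in PA/OA, and the Cox4i2 and Cox6a2 bars of every PP library are shorter than those of every PA/OA library.

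Of the sums over the genes of a complex, that of complex IV had the largest ratio of PP to PA/OA under TMM, upper-quartile and library size scaling. It summed to 1609 ± 37.8 CPM in PP and 996 ± 31.3 CPM in PA/OA, a ratio of 1.62. Complex V summed to 3781 ± 183 CPM in PP and 2645 ± 74.3 CPM in PA/OA (1.43), with Atp5a1 and Atp5b giving most of it. Complex III summed to 1050 ± 30.3 CPM in PP and 769 ± 37.7 CPM in PA/OA (1.37). Complex II summed to 540 ± 21.99 CPM in PP and 396 ± 22.9 CPM in PA/OA (1.36), and complex I to 2070 ± 78.5 CPM in PP and 1616 ± 71.0 CPM in PA/OA (1.28). In every complex all PP libraries were above all PA/OA libraries under TMM scaling. With library size only the ratios were 1.195 for complex IV, 1.06 for V, 1.01 for II and III, and 0.947 for complex I. A sum over members gets no test.

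Assembly factors help to build the complexes and do not stay in them. Of 17 complex I assembly factor genes tested, 1 was higher and 10 lower in PP (median -0.36), or 6 lower with the trend removed and 16 with library size only. Of 6 for complex III, 1 was higher and 4 lower (median -0.67). For complex IV 6 of 21 were higher and 10 lower (median -0.21, or 0.19 with the trend removed), for complex II 1 of 4 was higher, and for complex V 1 of 4, Atpif1, was lower. Over the 52 assembly factors tested 17.3% were higher and 48.1% lower, against 35.1% and 39.9% of all genes, and the difference from the subunits was not tested. The complex I factor Tmem186 was at 5.27 ± 0.31 CPM in PP and 19.0 ± 0.86 CPM in PA/OA (log2 -1.85 ± 0.13), and Ndufaf4 and Foxred1 changed by -1.15 ± 0.10 and -1.03 ± 0.11. Cox10, which makes the haem A precursor for complex IV, was at 5.73 ± 0.31 CPM in PP and 25.9 ± 0.60 CPM in PA/OA (log2 -2.18 ± 0.11). Lrpprc, which stabilises mitochondrial mRNAs, changed by -1.08 ± 0.06, while Cox14, which acts on newly made Co1 protein, was higher by 0.80 ± 0.06. Uqcc2, a complex III assembly factor, was the exception there, at 120 ± 0.78 CPM in PP and 46.4 ± 2.99 CPM in PA/OA (log2 1.37 ± 0.06), where Uqcc1, its partner in making cytochrome b, changed by -1.20 ± 0.10.

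Of 12 subunit genes of mitochondrial DNA tested, 10 were lower in PP and mt-Co1 higher (median -1.49), against 39.9% lower and 35.1% higher of all genes, and the difference from the nuclear subunits was not tested. In this set all 7 complex I genes were lower, by 1.25 to 3.49 on the log2 scale. In complex IV, mt-Co1 was higher by 0.85 ± 0.06, or -0.22 with the trend removed, mt-Co3 changed by -0.71 ± 0.10 and mt-Co2 did not pass (0.19, or -0.24 with library size only). Whether libraries were made from polyadenylated RNA or by removing ribosomal RNA is not stated in the sources used here, and mitochondrial mRNAs and nuclear mRNAs need not be captured alike.

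**Figure D5:**
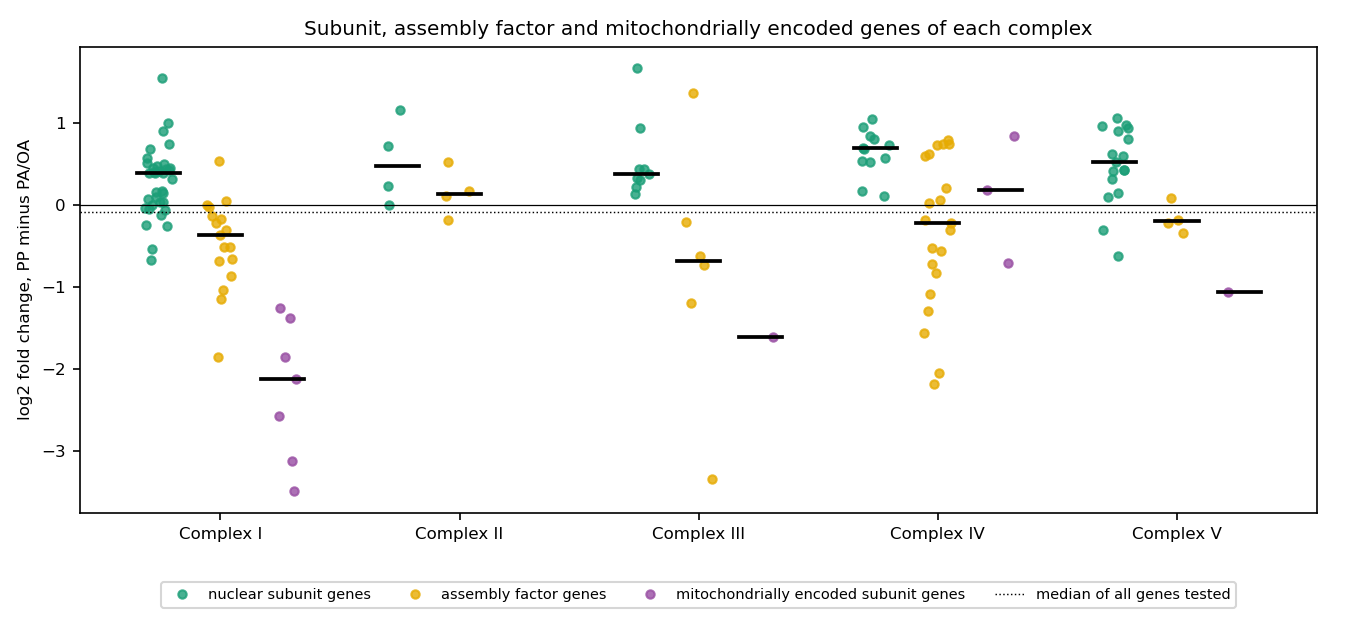
Log2 fold change, PP minus PA/OA, with TMM scaling, of nuclear subunit, assembly factor and mitochondrially encoded genes of each complex; 1 point is 1 gene, black bars are medians and the dotted line is the median of all genes tested; complex IV paralogues of restricted expression are left out. For complexes I and III the subunit medians of 0.39 and 0.38 lie above the assembly factor medians of -0.36 and -0.67 and the mitochondrially encoded genes; with library size only the subunit medians are -0.05 for each.

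Of 12 regulators of these genes 6 were higher and 3 lower, against 35.1% and 39.9% of all genes. For the abundant genes these shares were 54.9% and 28.9%. Under library size scaling 3 regulators were higher and 6 lower, against 20.6% and 56.7% of all genes. Ppargc1a, the coactivator PGC-1 alpha that raises respiratory chain transcription, had 16.2, 14.0 and 17.8 CPM in PP, against 2.87, 4.80 and 3.68 CPM in PA/OA. All PP libraries were well above all PA/OA libraries (log2 2.08 ± 0.17, adjusted p = 2.59e-10). Yy1 was higher by 1.32 ± 0.06, Nrf1 by 0.78 ± 0.07, Gabpa by 0.45 ± 0.08, Esrra by 0.42 ± 0.07 and Gabpb1 by 0.23 ± 0.09. With library size only Gabpa was at 0.02 and did not pass, while Esrra and Gabpb1 turned to -0.02 and -0.20. With upper-quartile scaling Gabpb1 turned to -0.01. With the trend removed Gabpa, Esrra and Gabpb1 did not pass (0.17, 0.11 and 0.11). Pprc1, the PGC-1-related coactivator, was at 37.2 ± 1.45 CPM in PP and 162 ± 11.7 CPM in PA/OA, a change of -2.13 ± 0.07. Tfam and Tfb2m, which start transcription of mitochondrial DNA, changed by -0.70 ± 0.09 and -0.60 ± 0.10. Ppargc1b, Perm1 and Polrmt did not pass. Of 16 other mitochondrial protein genes, 12 were higher and 3 lower (median 0.47), against 35.1% and 39.9% of all genes and 54.9% and 28.9% of the abundant ones; with the trend removed 6 were higher and 5 lower (median 0.01). Among them were Cs, the citrate synthase, at 565 ± 4.94 CPM in PP and 213 ± 4.94 CPM in PA/OA (log2 1.41 ± 0.05), and the import channel gene Tomm40, which changed by -1.33 ± 0.08. The median of the respiratory chain members was 0.42.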

How the data were processed

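RNA of AML12 cells was sequenced in 3 PP and 3 PA/OA libraries. The values are the authors' deposited counts, 1 per gene and library, made with featureCounts on build mm10 per the submitters' processing notes, which also name DESeq2 1.16.1. For the aligner, annotation, library kit and strandedness, the sources used here give nothing. The table gives symbols, biotypes, coordinates and gene-model lengths; a long model with rare exons lowers a level per kb. Of counts from 1 to 20, 57.1% to 61.5% were even, as would follow if both mates of a read pair were counted, which was not tested. Limits drawn from a count of 0 would then be too tight, and they cover counting error only. Replicates were not copies of one library, since the chi-square per gene of halved counts was 3.16 to 5.05 (1 if sampling alone acted).

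In R 4.3.3, edgeR 4.0.16 kept 15718 genes with filterByExpr, scaled them with TMM and compared PP with PA/OA by its quasi-likelihood F-test, two-sided, with Benjamini-Hochberg adjustment over all genes tested (threshold 0.05). Log2 fold changes are PP minus PA/OA, SEs were derived from F, and CPM are means ± SD. The biological coefficient of variation was 7.96%, and 85.6% of the variance lay on principal component 1. Of 6 members not tested, each had too few counts. The fit was tested on simulated data in which few genes changed, as many up as down. In these libraries most genes passed, so that run cannot check the scaling. Alternatives were upper-quartile scaling, library size only, DESeq2 size factors (DESeq2 1.42.0), 2 other filters, DESeq2, limma-voom (limma 3.58.1), a replicate block, protein-coding genes only, removal of a lowess trend with abundance (span 0.4), and leaving out each library. Paralogue shares were compared with an exact permutation test.

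The members and lists were chosen with earlier results of these data known. Named members were, per complex, up to 4 with the largest change past the test in each direction, those against the direction of their complex, the highest per kb and detected paralogues, with complex II and Cycs whole; of each list, up to 3 with the smallest p, and all regulators. Members named for a count, a core role, a setting or a motif (Ndufv2, Cyc1, Atp5b, Cox5b, Cox6b1, Cox7b, Cox7c, Atp5h, Ndufb11 among them), Lrpprc, Uqcc1, Stoml2, Tomm40, Atpif1 and the markers were named after their values were seen. One member counted in the totals is not reported here by itself.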

Additional observations from a re-analysis of the deposited data

How the results depend on the processing

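Residuals of same-numbered libraries correlated at 0.01, 0.00 and -0.02, and those of differently numbered ones at -0.03 to 0.02, so no pairing by number was visible. Values near 0 cannot show whether equal numbers share a culture or day, which no label states. With the replicate block 5427 genes were higher and 6088 lower (55 and 8 of the members), with no changed call among 95 named genes. Scaling moved most. With library size only, 3235 of all genes were higher; 24 members were higher and 28 lower, by complex 5 and 15 (I), 2 lower (II), 2 and 2 (III), 4 lower (IV), and 7 and 4 (V). With upper-quartile scaling 17 members were lower, 12 and 11 in complex I were higher and lower, 1 lower in II, 4 higher in III and 2 lower in V. With the trend removed 17 members were lower, 8 in I, 2 in II, 1 in III (4 higher) and 3 in V. Complex IV had 1 lower with a filter of 1 CPM, and V had 2 lower with protein-coding genes only. Leaving out a library gave 5 to 8 lower members, 1 to 4 in complex I and 1 to 2 in V. Summed ratios PP over PA/OA were 0.947, 1.01, 1.01, 1.195, 1.06 and 0.667 for complexes I to V and cytochrome c with library size only, 1.09, 1.155, 1.158, 1.37, 1.21 and 0.764 with upper-quartile scaling, and 1.53, 1.45 and 1.53 for II, III and V without their most abundant member. By plain counts, differences in share were 0.47 (Cox4i1), -0.47 (Cox4i2), -5.59 (Atp5g1), 10.8 (Atp5g2) and -5.17 (Atp5g3) percentage points; that of Cox7a2l was -1.14 without PP replicate 3 and -2.22 with all. Signs turned, with library size only, for Ndufa2 (-0.020), Sdha (-0.20), Sdhb (-0.43), Uqcrq (-0.13), Cyc1 (-0.29), Ndufa4 (-0.27), Atp5g3 (-0.020), Atp5a1 (-0.00048), Atp5b (-0.12), mt-Co2 (-0.24), Esrra (-0.020), Gabpb1 (-0.20) and Usmg5 (-0.20); with upper-quartile scaling, for Sdha (-0.0051), Sdhb (-0.24), Cyc1 (-0.10), Ndufa4 (-0.068), Gabpb1 (-0.0058) and Usmg5 (-0.0045); with the trend removed, for Sdha (-0.23), Sdhb (-0.33), Uqcrq (-0.14), Cyc1 (-0.31), Ndufa4 (-0.091), Atp5a1 (-0.26), Atp5b (-0.40) and mt-Co1 (-0.22). Beyond what each scaling does by construction, the cause was not tested. Depth limits Cox4i2, Cox7a1, Ndufa4l2 and Cyct.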

Other observations

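Coenzyme Q is the carrier between the complexes. Of 13 genes of its synthesis, 3 were higher in PP, 8 lower and 2 did not pass (edgeR, Benjamini-Hochberg adjusted), against 35.1% higher and 39.9% lower of all genes; with the trend removed 6 were lower. Their median was -0.37, also with the gene without a count in PP set at 3 counts. Pdss1, which makes the isoprenoid tail, had 4.12, 4.02 and 3.93 CPM in PP, against 16.8, 16.2 and 16.5 CPM in PA/OA (log2 -2.04 ± 0.13), and Coq4 changed by -1.20 ± 0.15. Coq8a, a kinase-like protein of the pathway, had no count in any PP library and 119 counts over the PA/OA libraries, at least 34.98-fold lower when 3 counts over the PP group are taken as the limit; the bound is smaller if both mates of a read pair were counted, which was not tested. Among the other enzymes that feed electrons to coenzyme Q, 4 of 7 tested were higher and 3 lower (57.1% and 42.9%, against 35.1% and 39.9% of all genes). Gpd2, the mitochondrial glycerol phosphate dehydrogenase, was at 288 ± 5.78 CPM in PP and 120 ± 2.06 CPM in PA/OA (log2 1.26 ± 0.05), and Etfdh, which passes electrons from fatty acid oxidation, was higher by 1.03 ± 0.06. Dhodh, of pyrimidine synthesis, was at 3.55 ± 0.23 CPM in PP and 13.3 ± 1.18 CPM in PA/OA (log2 -1.90 ± 0.15).

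Of 8 genes of supercomplexes and of the folded inner membrane, 4 were higher and Stoml2 was lower (-0.23 ± 0.09). Of all genes 35.1% were higher and 39.9% lower, and of the abundant genes 54.9% and 28.9%. With library size only 3 of the 8 were higher and 4 lower, against 20.6% and 56.7% of all genes. Higd1a and Higd2a, small proteins of the inner membrane that bind complexes III and IV, were higher by 1.88 ± 0.07 and 0.98 ± 0.09, with Higd1a at 210, 258 and 235 CPM in PP, against 65.0, 65.5 and 60.3 CPM in PA/OA. Chchd3, of the cristae junctions, was higher by 0.60 ± 0.06. Of the subunit genes that the name pattern missed, Usmg5, a membrane protein of ATP synthase, was at 59.9 ± 0.33 CPM in PP and 50.9 ± 0.53 CPM in PA/OA (log2 0.23 ± 0.06, or -0.20 with library size only and -0.00 with upper-quartile scaling), and Ndufab1, the acyl carrier protein of complex I, did not pass (-0.01 ± 0.10).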
